A study of Homo sapiens with 24 samples.

Results

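The comparison described here is that of dimethyl fumarate (DMF) with its solvent at 6 h, the earliest time sampled, in 6 of the 24 RNA-seq libraries of the series: 3 labelled DMF and 3 labelled control, taken by their treatment and time labels. All libraries came from HBL-1, a human lymphoma line long established in culture that stands for the activated B-cell-like subtype of diffuse large B-cell lymphoma. Its medium was RPMI-1640, supplemented with 20% FCS, Pen/Strep and Plasmocin. Treated cultures received 20 µM DMF dissolved in DMSO and control cultures received DMSO, so the solvent was common to both groups. The other libraries were taken at 12, 24 and 48 h, and those of 24 h serve below to show which early changes were still present. Nothing in the labels says whether the replicates r1 to r3 were separate cultures, so p-values measure the spread between these libraries, which may be technical. The line is a single tumour-derived line and stands for no normal B cell.

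DMF is a small electrophile that attaches to cysteine thiols, among them those of KEAP1, the adaptor that keeps the transcription factor NRF2 at low levels. Loss of free thiols and misfolded proteins are also sensed by the ATF4 branch of the stress response and by heat shock factor, and the targets of these 3 pathways are well known to rise. The account below therefore gives most room to genes outside the NRF2, ATF4 and heat shock lists. Cells of this lymphoma subtype are known to depend on signals from the B cell receptor and MYD88 to NF-kB, and many of them make interferon-stimulated transcripts without added interferon.

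Total expected counts ran from 23097873 to 38294199 per library, and 14934 to 15339 of the 21831 genes in the tables had counts. The 6 libraries had like weighted transcript lengths (3037 to 3125 bases). Ribosomal RNA took 1.0% to 1.09% of counts in control and 1.72% to 1.89% in DMF libraries, and its part in the results was not tested beyond a fit without those genes. The B cell markers CD79A, CD79B, MS4A1 and PAX5 were all present, and the summed level of 10 B cell markers was 5859 to 5910 counts per 1000000 (CPM) in control and 5204 to 5363 in DMF libraries. Of 11 T and NK cell markers in the tables, CD2 and CD3G had no count in any library and the sum was 0.670 to 0.950 CPM in control and 0.709 to 0.863 in DMF. Of 10 myeloid markers, S100A8, S100A9, FCGR3A and CD163 had no count, and the sums were 4.27 to 5.03 and 4.26 to 4.88 CPM. The 12 epithelial and stromal markers summed to 28.8 to 32.7 CPM in control and 19 to 19.9 in DMF, most of it PECAM1, an adhesion molecule that B cells also make, while KRT19 and CDH5 had no count.

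Of 12597 genes tested, 3614 were higher and 3642 lower in DMF at an adjusted p under 0.05 (28.7% and 28.9% of the genes tested). Counts of list members given below are to be read against these shares. The median log2 fold change of all genes was -0.01. Most of these changes were small: 599 genes were higher and 878 lower by 1.5-fold or more (4.76% and 6.97%), 229 and 285 by 2-fold or more, and 40 and 18 by 4-fold or more. Of the 599, 57 belonged to the NRF2, ATF4 or heat shock lists, while none of the 878 did. Of the 1477 genes past 1.5-fold, 1201 lay outside each of the gene lists used here. Groups of 3 libraries did not overlap for any but 326 of the 7256 called genes. Over all 12597 genes tested, called or not, the DMF libraries lay above all controls in 3886 and below all controls in 3981. Calls favour separated groups, so this separation adds no support to them. In a fit of all 24 libraries with the same contrast, whose spread was larger, 675 genes were higher and 750 lower, and 62 of the 183 genes given below with their values at 6 h did not pass: ACTB, ACTG1, AKT1S1, ATG101, ATP2A2, BACH1, BACH2, BAIAP3, BATF, BCL2, BCL6, BIRC3, CALR, CCL22, CD70, CD79A, CD79B, CRY1, CSK, DTX3L, E2F7, EDEM1, EEF1A1, EGR3, EIF2AK2, ELOVL5, ERAP1, FNIP1, GAPDH, GRASP, IFI30, IFIT3, INSIG1, JMJD6, KLF10, MCOLN1, MEF2B, MYD88, NCOA3, NFKB2, NFKBIE, NFKBIZ, OPTN, PARP9, PAX5, POLR1C, PSMA7, PTPRC, RNA28SN1, RNA28SN4, RPLP1, SLC39A14, SNTB1, TAPBP, TCF4, TCIRG1, TLR6, TNFRSF14, TUBB, ZFAND2A, ZFAND5 and ZFP36L2. On the TPM scale without further scaling, the median of all genes moved to -0.11, and 1704 genes were higher and 5613 lower; the directions given below are therefore relative to the median gene, and the counts (higher and lower) and medians of the lists on that scale are given beside them. With bulk RNA, fewer cells of a type and less RNA per cell cannot be told apart.

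**Figure D1:**
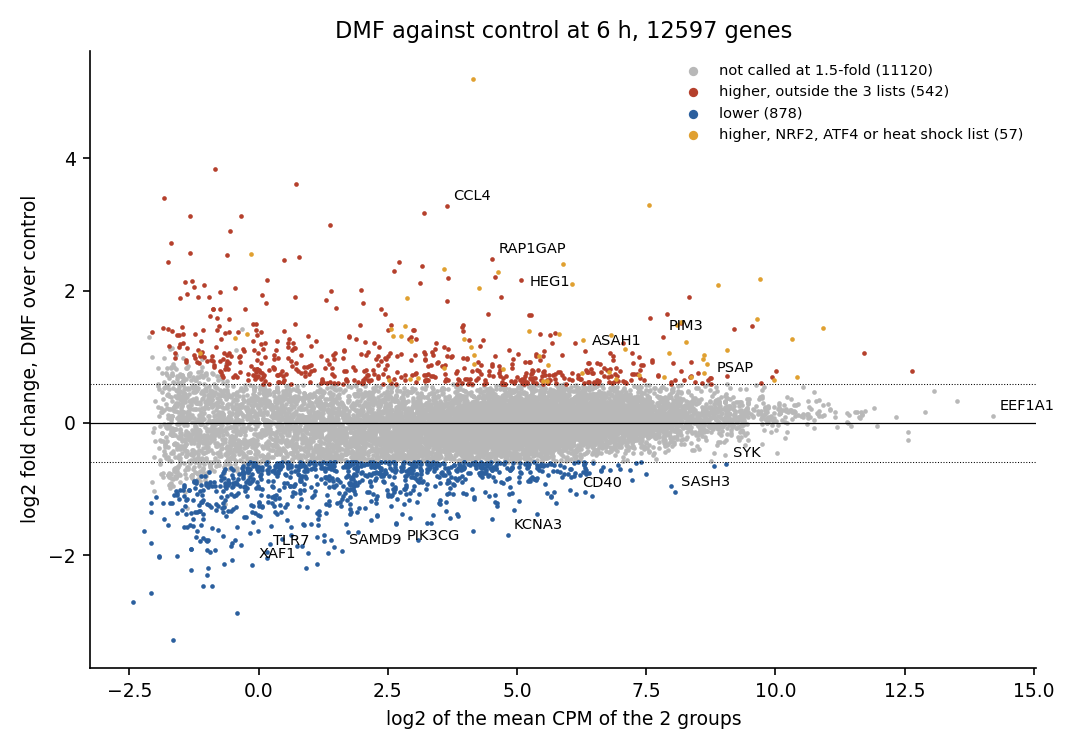
Each point is 1 of the 12597 genes tested, with its mean level (log2 CPM) on the horizontal axis and its log2 fold change of DMF over control at 6 h on the vertical axis; dotted lines mark 1.5-fold. The 57 genes past 1.5-fold from the 3 stress lists lie on the upper side, 542 others lie there too, and 878 genes lie on the lower side.

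The 3 stress lists are given by their counts. Of the NRF2 targets tested, 27 of 32 were higher and none lower (median log2 fold change 1.04, on the TPM scale 26 higher and 1 lower, median 0.74); SRXN1, the sulfiredoxin gene, stood at 33.6 to 35.7 CPM in control and 334 to 343 in DMF. Of ATF4 targets, 51 of 53 were higher and 1 lower (median 0.64, on the TPM scale 47 higher and 1 lower, median 0.44). Of heat shock genes, 22 of 25 were higher and none lower (median 0.50, on the TPM scale 21 higher and 0 lower, median 0.32).

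Outside these lists, a large and well separated rise was that of HEG1, which encodes a membrane protein that binds the KRIT1 complex (GRCh38 chromosome 3, 124965710 to 125055958, minus strand). HEG1 stood at 12.2, 12.8 and 12.2 CPM in the control libraries and at 54.6, 58 and 53.7 CPM in the DMF libraries, a 4.49-fold rise (log2 fold change 2.17 ± 0.051 SE, adjusted p = 3.4e-17). GABARAPL1, an ATG8 protein of autophagosomes (chromosome 12, 10212458 to 10223130, plus strand), rose from 8.94, 8.84 and 7.80 to 38.8, 39.2 and 39.6 CPM, or 4.62-fold (adjusted p = 2.5e-16). RAP1GAP, a GTPase activator that turns off RAP1 (chromosome 1, 21596215 to 21669363, minus strand), rose from 6.69, 6.20 and 7.86 to 37.5, 37.1 and 41.8 CPM, or 5.55-fold (adjusted p = 1.6e-15). In none of the 3 genes did a DMF library come near a control library. MAP1A, a microtubule-associated protein, rose 4.90-fold from between 1.80 and 2.31 CPM, and MYADML2 rose 5.15-fold from between 2.58 and 3.38 CPM. Genes that were nearly silent in control also appeared among the largest rises, among them TMEM255A (from between 0.356 and 0.838 to between 2.62 and 3.18 CPM), KLHDC8B (from between 0.257 and 0.534 to between 2.24 and 2.49 CPM), the fatty acid hydroxylase gene CYP4F11 (from between 0.0890 and 0.257 to between 1.01 and 1.95 CPM), TEKT5 (from between 0.208 and 0.377 to between 1.11 and 1.28 CPM) and NOTUM, a secreted Wnt-inactivating enzyme (from between 0.161 and 0.586 to between 1.45 and 2.24 CPM). HSPA6, an HSP70 gene that the heat shock list did not hold, stood at 0.119 to 0.209 CPM in control and 1.02 to 1.54 in DMF. Another 3 loci known by number (LOC112268313, LOC112268284 and LOC102723996) rose 4.57-fold, 5.37-fold and 4.34-fold; the last is a near-identical copy of ICOSLG, the ligand of the T cell costimulator ICOS, and the 2 copies summed to 4.48 to 5.40 CPM in control and 19.3 to 21.1 in DMF.

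**Figure D2:**
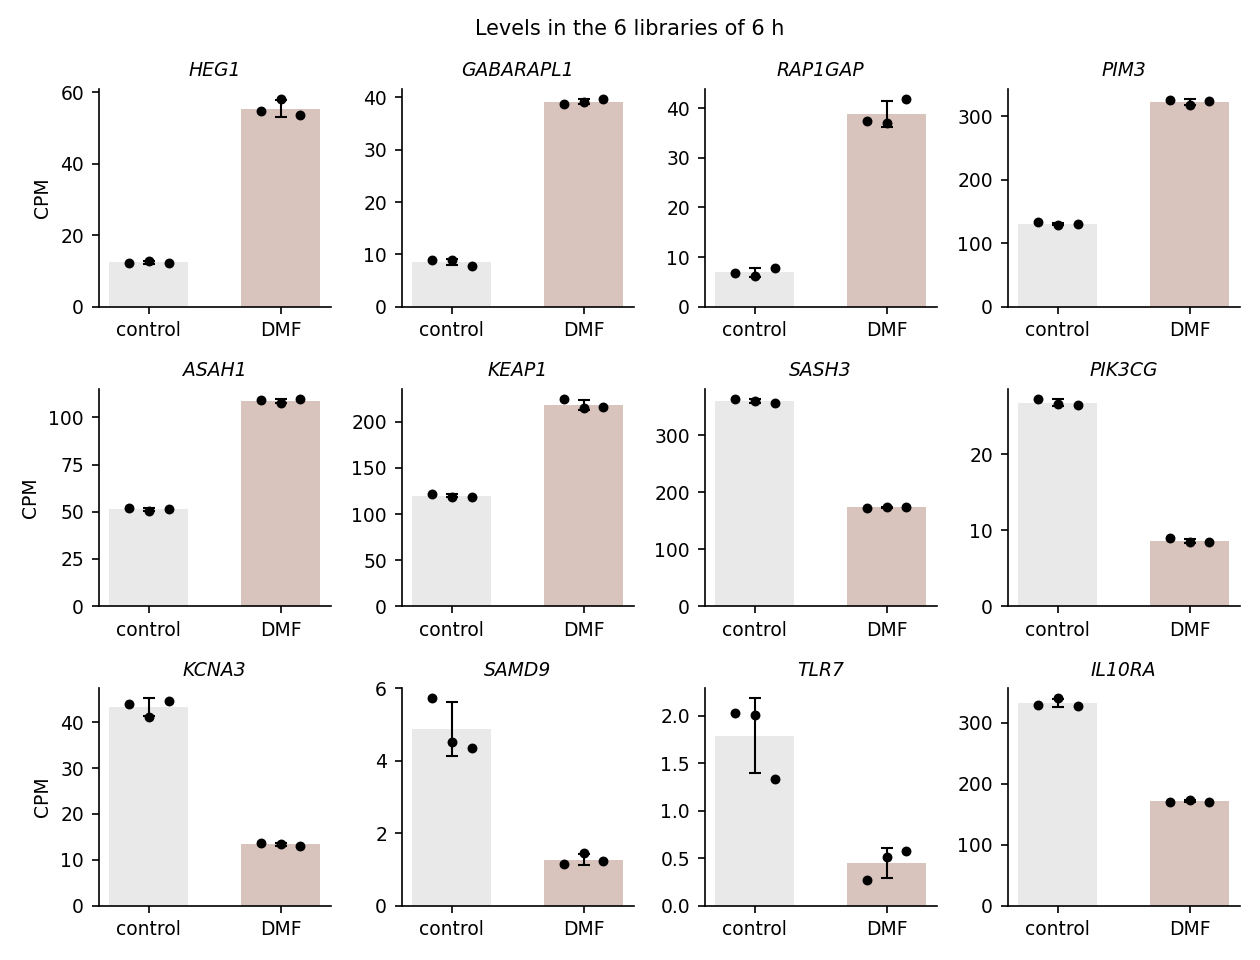
CPM of 12 genes in each of the 6 libraries of 6 h; bars are group means from 0, error bars are 1 SD over 3 libraries and points are libraries. In each of the 12 genes the DMF points lie entirely above (HEG1 to KEAP1) or entirely below (SASH3 to IL10RA) the control points.

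By absolute gain, abundant transcripts led outside the 3 lists. CALR, a calcium-binding chaperone of the endoplasmic reticulum, rose from 1201, 1226 and 1194 to 1772, 1682 and 1817 CPM (1.46-fold, adjusted p = 7.5e-12), and the ribosomal protein gene RPLP1 from between 1398 and 1518 to between 1838 and 2177 CPM. The elongation factor genes EEF2 and EEF1A1 and the glycolytic gene GAPDH rose 1.17-fold, 1.07-fold and 1.12-fold, but on the TPM scale EEF1A1 had a log2 fold change of -0.04 and GAPDH one of 0.03, neither past the test. The other named gains were copies of ribosomal RNA: RNA45SN4 (2.77-fold), RNA45SN2 (2.67-fold), RNA28SN4 (2.07-fold) and RNA28SN1 (1.71-fold). Since reads cannot be assigned among these copies, the sums over 5 copies of each are the firmer values: 45S precursor rose from between 985 and 1032 CPM in control to between 2776 and 2956 in DMF (2.87-fold), 28S from between 7436 and 8015 to between 13239 and 15031 (1.79-fold), and 18S from between 1241 and 1495 to between 1591 and 1910 (1.25-fold). The groups did not overlap in any of these sums. How ribosomal RNA was removed from these libraries is not given in the sources used here.

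More genes of the lysosome were higher than lower. Lysosomes break down proteins, lipids and sugars at an acid pH kept by the V-ATPase proton pump, and many of their genes carry the E-box TCACGTGA, which factors of the MiT-TFE family (TFEB, TFE3, MITF) are known to bind. A list of lysosome and V-ATPase genes was written after values had been seen, so its counts are a description. Of its 79 members tested, 50 were higher and 13 lower, 18 and 3 of them by 1.5-fold or more (median log2 fold change 0.32, on the TPM scale 42 higher and 17 lower, median 0.18). Of the 17 proton pump genes in it, 15 were higher and 1 lower. The E-box occurred in the 250 bases before the start of 7 of 57 lysosome genes that matched the promoter table (12.3%), of 11 of 399 genes higher by 1.5-fold outside the 3 lists (2.76%), of 2 of 616 genes lower by 1.5-fold (0.325%), of 1.76% of all tested genes and of 0.890% of all promoters in the table. Among these 7, GAA held 2 matches and had a log2 fold change of -0.02. Whether the E-box went with the size of the rise was not tested. Windows around the E-box are shown for the 4 of these 7 genes that rose most. They are on the strand of the gene (RefSeq, GRCh38.p14), with the E-box in capitals. It reads the same on both strands.
LAMP1: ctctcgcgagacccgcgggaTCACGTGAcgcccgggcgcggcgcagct
MFSD1: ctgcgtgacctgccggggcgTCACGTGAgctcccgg
ATP6V1G1: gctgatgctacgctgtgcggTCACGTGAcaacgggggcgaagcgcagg
MCOLN1: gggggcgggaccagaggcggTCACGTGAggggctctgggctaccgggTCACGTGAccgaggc
These windows lie at chr13:113297190-113297237 for LAMP1, chr3:158802018-158802053 for MFSD1, chr9:114587690-114587737 for ATP6V1G1 and chr19:7522562-7522623 for MCOLN1, all on the plus strand.

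Of the lysosomal genes, several were well separated from control. ASAH1, acid ceramidase, stood at 51.9, 50.6 and 51.4 CPM in control and 109, 107 and 109.5 in DMF (2.12-fold, adjusted p = 2.5e-15). GLA, alpha-galactosidase A, rose from between 118 and 126 to between 217 and 229 CPM (1.84-fold). NEU1, a sialidase, rose 2.01-fold from between 29.4 and 30.5 CPM. PSAP, which gives the saposin activators of these enzymes, rose 1.59-fold to between 524 and 534 CPM, and GM2A, the activator of ganglioside breakdown, rose 1.6-fold to between 521 and 529 CPM. ATP6V1C1, a subunit of the proton pump, rose from between 56.7 and 61.2 to between 109 and 111 CPM (1.88-fold). Of the genes whose windows are printed above, the membrane protein gene LAMP1 rose 1.54-fold (from between 273 and 276 to between 408 and 431 CPM), the transporter gene MFSD1 1.53-fold, the pump subunit gene ATP6V1G1 1.52-fold and the calcium channel gene MCOLN1 1.46-fold. TCIRG1, a pump subunit of osteoclasts and immune cells, fell instead, from 36.7, 40.3 and 38.0 to 27.2, 26.3 and 28.4 CPM (1.40-fold, adjusted p = 6.1e-08), and CTSB, cathepsin B, stood at 84.5 to 85.8 CPM in control and 83.8 to 88.0 in DMF (adjusted p = 0.66, but 0.016 for a log2 fold change of -0.12 on the TPM scale). TCIRG1 and CTSB were named after their values were seen, as were MFSD1, LAMP1, ATP6V1G1 and MCOLN1.

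Control of mTORC1 at the lysosome was covered by another list written after values had been seen: 16 of 31 members were higher and 7 lower, with a median of 0.14 (on the TPM scale 12 higher and 9 lower, median -0.02). FLCN and FNIP1 form the complex that acts on the RagC and RagD GTPases and so governs TFEB and TFE3. FLCN rose from 34.3, 32.8 and 33.4 to 58.2, 56.5 and 58.9 CPM (1.72-fold, adjusted p = 3.8e-12) and FNIP1 from between 32.8 and 34.7 to between 56.4 and 58.4 CPM (1.70-fold). RRAGD rose 2.62-fold from between 7.33 and 9.41 CPM, RRAGC 1.58-fold from between 25 and 27.6 CPM, and RHEB, the GTPase that activates mTORC1, 1.66-fold from between 36.5 and 37.5 CPM. AKT1S1, an inhibitory subunit of the complex, rose 1.43-fold.

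Autophagy genes were also mixed, with 22 of 34 higher and 5 lower (median 0.17, on the TPM scale 13 higher and 10 lower, median 0.03). Besides GABARAPL1, the ATG8 gene MAP1LC3B rose from between 57.4 and 61.0 to between 96.1 and 105 CPM (1.74-fold) and the receptor gene CALCOCO2 rose 1.47-fold. ATG3 and ATG101, which act in conjugation and in the initiating kinase complex, rose 1.26-fold and 1.38-fold. The receptor gene OPTN rose 1.27-fold.

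Lists of protein quality control in the cytosol and the endoplasmic reticulum held more higher than lower genes. Of genes of ubiquitin ligases and deubiquitinases, 21 of 30 were higher and 2 lower (median 0.27, on the TPM scale 14 higher and 7 lower, median 0.09). KEAP1, the ligase adaptor that DMF modifies, rose from 121, 119 and 119 to 225, 215 and 216 CPM (1.83-fold, adjusted p = 1.7e-14). NFE2L2, the gene of NRF2, rose from between 57.7 and 64.1 to between 102 and 107 CPM (1.71-fold), and NFE2L1, whose product controls proteasome genes, from between 228 and 243 to between 362 and 374 CPM (1.56-fold). ZFAND5 and ZFAND2A, which bind the proteasome, rose 1.57-fold and 1.74-fold. Changes of proteasome subunits were small: 30 of 34 were higher, none lower and none by 1.5-fold (median 0.20, on the TPM scale 14 higher and 3 lower, median 0.06). PSMD11 (1.38-fold), PSMA7 (1.38-fold) and PSMD14 (1.43-fold) had the smallest p. In the unfolded protein response list 23 of 29 were higher and 3 lower (median 0.25, on the TPM scale 14 higher and 4 lower, median 0.10). EDEM1, which directs misfolded glycoproteins to disposal, rose from between 242 and 252 to between 394 and 412 CPM, and DNAJC3, a co-chaperone that inhibits PERK, rose 1.59-fold.

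**Figure D3:**
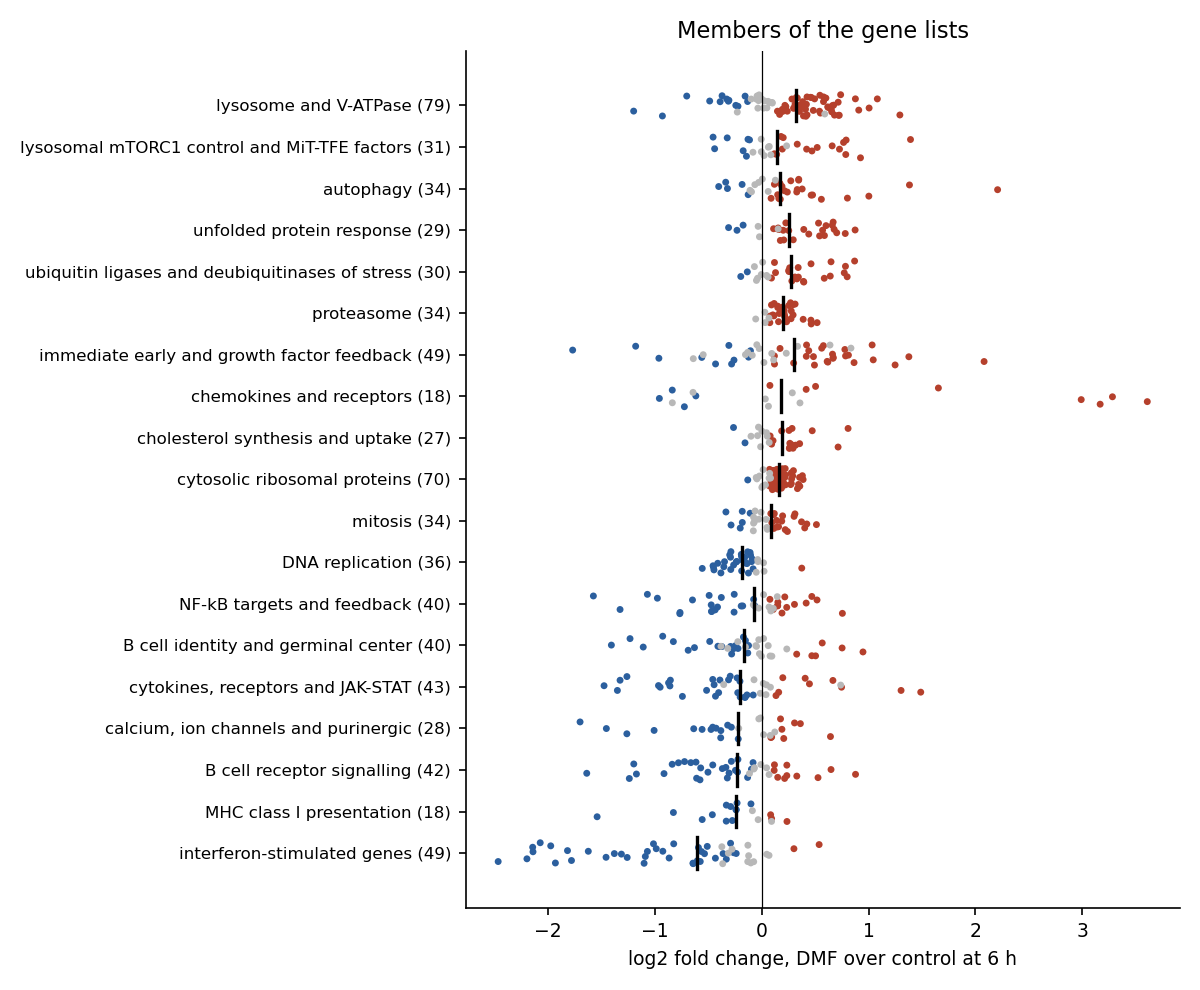
Log2 fold change of DMF over control at 6 h for the tested members of 19 gene lists, with the number tested in parentheses; red points are called higher, blue points lower and grey points neither, and black bars are list medians. Lysosome, unfolded protein response and proteasome members lie mostly to the right of 0, and interferon-stimulated, B cell receptor and DNA replication members mostly to the left.

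Immediate early genes and the phosphatases that restrain growth factor signalling were mixed. These are genes that kinases of the MAPK pathways are known to switch on within minutes. Of 49 tested, 25 were higher and 10 lower, 14 and 3 by 1.5-fold or more (median 0.30, on the TPM scale 20 higher and 14 lower, median 0.07). DUSP2, a nuclear MAPK phosphatase, rose from 220.2, 217 and 202 to 362, 353 and 388 CPM (1.72-fold, adjusted p = 1.4e-12), and DUSP5, another, from between 15.5 and 16.8 to between 28.9 and 30.8 CPM (1.82-fold). EGR3, a zinc finger factor induced by antigen receptors, rose from between 9.59 and 10.3 to between 23.2 and 23.8 CPM (2.38-fold). KLF10 and the RNA-decay gene ZFP36L2 rose 1.49-fold and 1.54-fold, while the antiproliferative gene BTG1 fell 1.47-fold. JUN had 17.7 to 19.8 CPM in control and 18.2 to 18.5 in DMF (adjusted p = 0.52) and MYC 246 to 258 and 252 to 258 CPM (adjusted p = 0.55); on the TPM scale JUN was lower by a log2 fold change of -0.16 (adjusted p = 0.049) and MYC by -0.12 (adjusted p = 0.010), near that scale's shift of all genes. JUN and MYC were named after their values were seen.

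Interferon-stimulated genes were the list with the lowest median. Type I interferon drives them through the interferon-stimulated response element of their promoters. Of 49 tested, 36 were lower, 26 of them by 1.5-fold or more, and 2 higher (median log2 fold change -0.60, on the TPM scale 2 higher and 39 lower, median -0.47). The element, searched on both strands as GAAA, any 2 bases and GAAA, occurred in the 250 bases before the start of 19 of 37 of them with a promoter in the table (51.4%), of 33 of 616 genes lower by 1.5-fold (5.36%), of 12 of 399 genes higher by 1.5-fold outside the 3 lists (3.01%), of 2.44% of all tested genes and of 3.07% of all promoters. Some members with the element did not fall by 1.5-fold, such as IFI6 (log2 fold change 0.07), BST2 (0.05), OAS3 (-0.07), ISG20 (-0.10) and ISG15 (-0.29). Others with it did, such as DDX60 (-1.26), IFIH1 (-1.07) and PARP14 (-0.99). Whether the element went with the size of the fall within the list was not tested. The 5 members with the element and the largest falls are shown on the strand of the gene, with the element in capitals (RefSeq, GRCh38.p14).
EPSTI1: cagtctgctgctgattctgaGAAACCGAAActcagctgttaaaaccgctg
TNFSF10: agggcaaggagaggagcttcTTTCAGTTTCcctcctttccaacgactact
SAMD9: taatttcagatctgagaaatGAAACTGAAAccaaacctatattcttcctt
IFIT3: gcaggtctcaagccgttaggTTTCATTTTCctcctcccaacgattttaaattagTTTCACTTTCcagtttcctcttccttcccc
RTP4: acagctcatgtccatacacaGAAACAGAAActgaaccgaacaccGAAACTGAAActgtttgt
The windows lie at chr13:42992262-42992311 (EPSTI1), chr3:172523588-172523637 (TNFSF10) and chr7:93118086-93118135 (SAMD9) on the minus strand, and at chr10:89327821-89327904 (IFIT3) and chr3:187368323-187368384 (RTP4) on the plus strand. In TNFSF10 and IFIT3 the element is read on the opposite strand.

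SAMD9, an antiviral factor (chromosome 7, 93099513 to 93118023, minus strand), stood at 5.72, 4.52 and 4.36 CPM in control and 1.14, 1.46 and 1.23 in DMF, a 3.81-fold fall (log2 fold change -1.93 ± 0.159, adjusted p = 4.6e-09). Its paralog SAMD9L fell 3.93-fold from between 2.89 and 3.20 CPM. The nuclear body genes SP100 and SP110 fell 1.51-fold and 1.42-fold, and EIF2AK2, the RNA-activated kinase PKR, 1.52-fold. USP18, which removes ISG15 from proteins and damps the receptor, fell 4.4-fold from between 0.628 and 1.45 CPM, and the RNA sensor gene DHX58 3.52-fold from between 0.997 and 1.17 CPM. Of the other genes whose windows are shown, TNFSF10 fell 4.20-fold, EPSTI1 4.58-fold, IFIT3 2.74-fold and RTP4 2.48-fold, all at levels below 1.5 CPM in each library; with the library medians of the TPM set equal, IFIT3 did not pass (adjusted p = 0.058). Not every member fell: DTX3L, a ubiquitin ligase that pairs with PARP9, rose from between 73.8 and 74.0 to between 104 and 113 CPM (1.45-fold, adjusted p = 2.5e-10). PARP9 itself, named after its values were seen, rose 1.23-fold from between 26.3 and 28.1 CPM.

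Related genes outside that list were among the largest falls. PARP10, a mono-ADP-ribosyltransferase, fell from 14.3, 13.8 and 11.1 to 3.30, 4.31 and 3.85 CPM (3.40-fold, adjusted p = 1.3e-10), and BTN3A3, a butyrophilin of gamma-delta T cell recognition, 3.60-fold from between 0.880 and 1.48 CPM. For MHC class I presentation, 12 of 18 genes were lower and 3 higher (median -0.24, on the TPM scale 1 higher and 14 lower, median -0.37). The summed level of the list overlapped between groups, at 2655 to 2660 CPM in control and 2619 to 2697 in DMF. The peptide transporter gene TAP1 fell from 19.7, 17.6 and 19.2 to 11, 10.6 and 10.3 CPM (1.77-fold, adjusted p = 3.4e-09), and TAPBP, tapasin, which ties it to class I molecules, fell 1.38-fold. The aminopeptidase genes ERAP2 and ERAP1 fell 2.91-fold and 1.26-fold. For class II, 6 of 14 were lower and 3 higher (on the TPM scale 1 higher and 10 lower, median -0.24). HLA-DMB, part of the peptide editor, fell 1.61-fold, and IFI30, a lysosomal thiol reductase, rose from between 336 and 357 to between 501 and 544 CPM (1.51-fold).

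Transcripts of B cell receptor signalling were lower at several steps. The receptor passes its signal through the kinases SYK and BTK to phospholipase C and to phosphoinositide 3-kinase (PI3K). Of 42 genes of this pathway, 26 were lower, 11 of them by 1.5-fold or more, and 10 higher (median -0.24, on the TPM scale 6 higher and 30 lower, median -0.36). PIK3CG, the gamma catalytic subunit of PI3K (chromosome 7, 106865278 to 106907145, plus strand), fell from 27.3, 26.6 and 26.5 to 8.93, 8.44 and 8.51 CPM (3.11-fold, adjusted p = 3.1e-14). DAPP1, an adaptor that binds the lipid product of PI3K, fell from between 32.3 and 34.7 to between 14.1 and 14.8 CPM (2.29-fold). PTPRC, the CD45 phosphatase, fell from 226, 228 and 229.6 to 131, 134 and 133 CPM (1.72-fold, adjusted p = 3.4e-14). SYK fell from between 637 and 649 to between 404 and 429.8 CPM and CSK, the kinase that restrains Src kinases, from between 943 and 962 to between 752 and 778 CPM. PIK3CD, the delta subunit, fell 1.58-fold. Of the 2 signalling chains of the receptor, CD79B fell from 1215, 1223 and 1196 to 883, 853 and 910.2 CPM (1.37-fold) and CD79A rose from 924, 935 and 917 to 1069, 1069 and 1129 CPM (1.18-fold, adjusted p = 5.3e-07), a change too small to pass edgeR's test against 1.2-fold. NFATC1, a factor that calcium activates, rose 1.57-fold from between 206 and 211 CPM. SASH3, an adaptor of lymphocytes (chromosome X, 129779979 to 129795201, plus strand), was outside the list and fell from 364, 359.8 and 357 to 173, 175 and 174 CPM (2.07-fold, adjusted p = 1.6e-16).

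Some ion channels and receptors of the plasma membrane were lower as well. KCNA3, the voltage-gated potassium channel Kv1.3 (chromosome 1, 110672465 to 110675033, minus strand), fell from 44.0, 41.1 and 44.7 to 13.6, 13.5 and 12.9 CPM (3.25-fold, adjusted p = 2.3e-15). KCNN4, the calcium-activated potassium channel of lymphocytes, fell from between 32.8 and 37.6 to between 13.8 and 14.7 CPM (2.40-fold). The receptor gene P2RY10 fell 2.74-fold to between 11.2 and 13.2 CPM and P2RX5 2.01-fold to between 42.8 and 44.2 CPM. The 2 calcium pumps of the endoplasmic reticulum went opposite ways, ATP2A2 up 1.56-fold to between 499 and 512 CPM and ATP2A3 down 1.39-fold to between 32.4 and 34.4 CPM. In this list 14 of 28 were lower and 8 higher (median -0.22, on the TPM scale 3 higher and 17 lower, median -0.19), and with the library medians of the TPM set equal 11 were lower and 8 higher (median -0.04). CYSLTR1, a leukotriene receptor, fell 3.40-fold from between 3.95 and 4.28 CPM and TMC5, a transmembrane channel-like gene, 4.4-fold from between 3.50 and 3.68 CPM.

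Transcription factors of B cell identity divided. Of 40 genes, 20 were lower and 6 higher (median -0.16, on the TPM scale 5 higher and 26 lower, median -0.26). BCL6, the germinal center repressor, fell from 67.6, 73.5 and 67.8 to 43.7, 46.1 and 44.9 CPM (1.55-fold, adjusted p = 1.4e-10), PAX5 from between 605 and 615 to between 412 and 453 CPM and TCF4 from between 534 and 554 to between 342 and 355 CPM (1.56-fold). CD24, a surface sialoprotein, fell 2.65-fold from between 20.2 and 22.3 CPM. MEF2B rose from 78.3, 81.3 and 77.9 to 154, 146 and 158 CPM (1.93-fold, adjusted p = 5.7e-14); it lies in a readthrough locus with BORCS8, so its reads are uncertain. The repressors BACH1, which competes with NRF2 for the same sites, and BACH2 rose 1.68-fold and 1.48-fold. Of plasma cell genes, 8 of 18 were higher and 7 lower (on the TPM scale 5 higher and 9 lower, median -0.09); XBP1, the factor of secretory cells, rose from between 93.1 and 93.3 to between 154 and 166 CPM.

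Cytokine receptors and their kinases were mostly lower. Of 43 genes, 26 were lower and 9 higher (median -0.20, on the TPM scale 7 higher and 31 lower, median -0.31). IL10RA, the binding chain of the interleukin 10 receptor, fell from 329, 340.3 and 328 to 171, 174 and 171 CPM (1.93-fold, adjusted p = 1.6e-15). IL4R fell from between 48.3 and 50.7 to between 25.2 and 28.4 CPM (1.83-fold) and JAK3, a kinase bound to the common gamma chain, from between 36.9 and 39.3 to between 19.4 and 19.9 CPM (1.95-fold). IL16, a secreted chemoattractant, fell 1.81-fold. PIM3, a serine and threonine kinase gene (chromosome 22, 49960513 to 49964080, plus strand), rose from 133, 129 and 129.9 to 325, 317 and 324 CPM (2.47-fold, adjusted p = 1.4e-17), and BATF, an AP-1 factor, rose 1.59-fold. The feedback inhibitors SOCS1 and SOCS3 went opposite ways: SOCS1 stood at 2.41, 1.84 and 1.87 CPM in control and 6.26, 4.83 and 6.22 in DMF, and SOCS3 at 6.43, 6.95 and 6.65 and 1.86, 2.37 and 2.92 CPM. The SOCS genes were named after their values were seen.

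Of NF-kB targets and feedback genes, 20 of 40 were lower and 13 higher, with a median of -0.07 (on the TPM scale 4 higher and 22 lower, median -0.21). NFKBIE, an inhibitor that holds NF-kB in the cytosol, rose from 276, 263 and 269 to 454, 452 and 458 CPM (1.69-fold, adjusted p = 3.4e-14). The related gene NFKBIZ fell from between 79.2 and 80.6 to between 46.0 and 47.6 CPM, BIRC3, a ubiquitin ligase of cell survival, fell 1.57-fold and NFKB2 1.41-fold. Among ligands and receptors of the tumour necrosis factor superfamily, TNFRSF13C, the BAFF receptor, fell from between 7.51 and 9.01 to between 3.76 and 3.91 CPM (2.12-fold). The ligand gene CD70 fell 1.67-fold. TNFRSF10A and TNFRSF10D, a death receptor and a decoy for TRAIL, rose 1.85-fold and 1.92-fold. TNFRSF14 rose 1.48-fold. The counts of that list were 6 higher and 6 lower of 23, near the shares over all genes (on the TPM scale 4 higher and 10 lower, median -0.15).

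Toll-like receptors of endosomes need UNC93B1 to leave the endoplasmic reticulum. UNC93B1 fell from 72.2, 72.1 and 68.1 to 34.0, 34.7 and 33.8 CPM (2.07-fold, adjusted p = 4.2e-14). TLR7, one of its clients (chromosome X, 12867083 to 12890380, plus strand), stood at 2.03, 2.01 and 1.34 CPM in control and 0.270, 0.512 and 0.573 in DMF, a 3.85-fold fall at a low level (adjusted p = 6.4e-06). MYD88, the adaptor of these receptors, fell 1.27-fold from between 107 and 109 CPM, while TOLLIP, which restrains the same pathway, rose 1.78-fold from between 73.0 and 75 CPM. TLR6 rose 1.75-fold. Over the list 10 of 32 were higher and 8 lower, near the shares over all genes (on the TPM scale 5 higher and 17 lower, median -0.15). Of the chemokine list 8 of 18 were higher and 4 lower (on the TPM scale 6 higher and 6 lower, median 0.01): beside CCL3 (from between 1.51 and 2.31 to between 15.7 and 18.2 CPM) and CCL4 (from between 1.78 and 2.80 to between 22.1 and 23.4 CPM) and their near-identical copies, CXCL16, a membrane-bound chemokine, rose from 9.61, 10.9 and 10.7 to 33.2, 31.0 and 33.8 CPM (3.14-fold, adjusted p = 4.2e-14), and CCL22, which draws regulatory T cells, fell 1.53-fold.

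Genes that no list held made up 430 of the 599 rises and 771 of the 878 falls past 1.5-fold. Of these, 48 were higher and 39 lower by 2-fold or more while their higher group reached 10 CPM, and the following were picked from them after their values were seen. RHOBTB2, an adaptor of CUL3 ubiquitin ligases, had the smallest p of all of them and rose from 117, 118 and 114 to 369, 371 and 354 CPM (3.14-fold, adjusted p = 1.0e-18). SRGN, the granule proteoglycan serglycin, rose from between 79.1 and 81.7 to between 179 and 190.4 CPM, the secreted protein gene METRNL from between 10.7 and 10.9 to between 39.5 and 42.0 CPM, and UPP1, uridine phosphorylase, from between 8.01 and 8.63 to between 21.8 and 23.5 CPM. MXD1, which pairs with MAX in place of MYC, rose 2.42-fold from between 4.23 and 4.47 CPM. Among the falls, FGD2 and RIPOR2 fell 2.30-fold and 2.15-fold. PTPN18, a tyrosine phosphatase, fell 2.50-fold. ITGAL, the LFA-1 integrin chain of leukocytes, fell from 15.8, 13 and 15.9 to 5.45, 5.20 and 5.15 CPM (2.85-fold), and IKBKE, a kinase upstream of interferon genes, from between 14.7 and 17 to between 6.08 and 7.25 CPM (2.31-fold).

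Of the BCL2 family and death genes, 13 of 40 were higher and 15 lower (on the TPM scale 9 higher and 22 lower, median -0.16). Over all genes tested the shares were 28.7% and 28.9%. PMAIP1, the death-promoting protein NOXA, rose from 65.0, 64.8 and 65.5 to 119, 119 and 127 CPM (1.87-fold, adjusted p = 9.0e-14) and BIK, another such protein, from between 23.5 and 25.2 to between 45 and 48.0 CPM (1.89-fold). BMF fell 1.47-fold. Of the protectors, BCL2 rose from between 314 and 325 to between 464 and 487 CPM (1.48-fold) and BCL2L1, the BCL-XL gene, fell from between 99.8 and 103 to between 72.3 and 74.0 CPM (1.38-fold). In the p53 target list 8 of 29 were higher and 8 lower, near the shares over all genes (on the TPM scale 2 higher and 14 lower, median -0.14). The cell cycle inhibitor gene CDKN1A stood at 18.6 to 20.3 CPM in control and 31.4 to 32.3 in DMF (1.64-fold).

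DNA replication genes were mostly lower by small amounts: 30 of 36 were lower, 1 higher and none past 1.5-fold (median -0.18, on the TPM scale 1 higher and 35 lower, median -0.31). PCNA, the sliding clamp, stood at 407, 395 and 406 CPM in control and 319, 312 and 315 in DMF (1.28-fold lower, adjusted p = 1.4e-09). CDC45, a part of the replicative helicase, fell 1.47-fold. Mitosis genes had 18 of 34 higher and 6 lower, with a median of 0.09 (on the TPM scale 7 higher and 15 lower, median -0.06). CCNB1, cyclin B1, rose from between 274 and 291 to between 366 and 389 CPM (1.34-fold) and CENPA, the centromere histone, 1.43-fold. E2F7, a repressor of E2F targets, fell 1.81-fold from between 17.8 and 18.8 CPM.

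Metabolic lists moved little. Cholesterol synthesis and uptake had 17 of 27 members higher and 2 lower (median 0.19, on the TPM scale 10 higher and 8 lower, median 0.05), with INSIG1, which holds the pathway's regulator in place, at 98.2 to 104 and 119 to 123 CPM. Glycolysis genes had 15 of 25 higher and 3 lower, with a median of 0.11 (on the TPM scale 5 higher and 6 lower, median -0.04). PDHB, a subunit of pyruvate dehydrogenase, fell 1.41-fold. Nuclear genes of oxidative phosphorylation had 26 of 52 higher and 6 lower (median 0.08, on the TPM scale 11 higher and 20 lower, median -0.05). In the TCA cycle 8 of 25 were higher and 10 lower (on the TPM scale 2 higher and 16 lower, median -0.18; without control replicate 2 only 4 were higher, and without control replicate 1 or DMF replicate 1 only 6 were lower), and IDH1, the cytosolic isocitrate dehydrogenase, fell from between 21.4 and 24.5 to between 16.2 and 16.7 CPM. Among targets of hypoxia-inducible factor, 16 of 32 were higher and 3 lower (on the TPM scale 10 higher and 10 lower, median 0.03). BHLHE40, a repressor of the clock, rose from 31.3, 30.5 and 27.9 to 74.4, 78.4 and 76.7 CPM (2.56-fold, adjusted p = 5.4e-15), JMJD6 1.77-fold and ADM, the adrenomedullin gene, 2.18-fold. Of dioxygenases that use 2-oxoglutarate, which fumarate can inhibit, 14 of 37 were higher and 8 lower (on the TPM scale 7 higher and 13 lower, median -0.08). TET1, a DNA demethylase among them, stood at 2.28, 2.30 and 2.46 CPM in control and 0.809, 0.620 and 0.764 in DMF (3.22-fold lower, adjusted p = 5.0e-07). AIFM2, the ferroptosis suppressor FSP1, rose from 30.6, 32.8 and 30.1 to 52.9, 55.4 and 54.0 CPM (1.74-fold, adjusted p = 8.9e-12). In fatty acid metabolism the elongase genes ELOVL7 and ELOVL5 went apart, 1.86-fold lower and 1.40-fold higher. Over that list 11 of 28 were higher and 7 lower (on the TPM scale 4 higher and 12 lower, median -0.08).

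Beside 28.7% of all genes higher and 28.9% lower, the remaining lists were mixed. They were the clock (8 higher and 2 lower of 19, median 0.11, on the TPM scale 4 higher and 3 lower, median -0.03), metallothioneins and zinc transport (9 higher and 3 lower of 19, median 0.16, on the TPM scale 3 higher and 6 lower, median -0.02), nuclear receptors (10 higher and 5 lower of 27, median 0.03, on the TPM scale 4 higher and 9 lower, median -0.09) and cyclins and their kinases (10 higher and 12 lower of 31, median -0.06, on the TPM scale 4 higher and 19 lower, median -0.19). The others were developmental signalling (14 higher and 12 lower of 42, median 0.03, on the TPM scale 7 higher and 16 lower, median -0.10), the cytoskeleton (9 higher and 14 lower of 39, median -0.01, on the TPM scale 4 higher and 21 lower, median -0.13) and iron and lipid peroxidation (7 higher and 7 lower of 26, median 0.02, on the TPM scale 5 higher and 11 lower, median -0.10). Their leading members were CRY1 (1.43-fold higher), the zinc importer gene SLC39A14 (1.42-fold higher), the coactivator gene NCOA3 (1.52-fold higher) and WNT10A (1.66-fold lower). Actin and tubulin genes gave 3 of the 10 largest losses in CPM: ACTB fell from 6478, 6759 and 6507 to 5562, 5420.1 and 5480.2 CPM (1.2-fold), ACTG1 from between 6305 and 6351 to between 5617 and 5829 CPM and TUBB from between 1239.6 and 1263 to between 1046 and 1076 CPM.

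Among families, zinc finger genes were more often lower than higher. Of 446 tested genes named ZNF, most of them DNA-binding zinc finger factors, 210 were lower (47.1%) and 47 higher (10.5%), against 28.9% and 28.7% of all genes, with a median log2 fold change of -0.18 and 42 lower and 3 higher by 1.5-fold or more. On the TPM scale 276 were lower and 17 higher, and with its library medians set equal 152 and 56. The family was chosen by symbol after values were seen. Cytosolic ribosomal protein genes were nearly all slightly higher, 59 of 70 (median 0.16), and none passed 1.5-fold. On the TPM scale 18 were higher and 7 lower (median 0.03), and in the fit of all 24 libraries none was called. Ribosome biogenesis genes had 23 of 40 higher and 7 lower, with a median of 0.11 (on the TPM scale 5 higher and 17 lower, median -0.04). LYAR, a nucleolar protein, rose 1.42-fold and POLR1C, a subunit shared by RNA polymerases I and III, 1.25-fold.

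**Figure D4:**
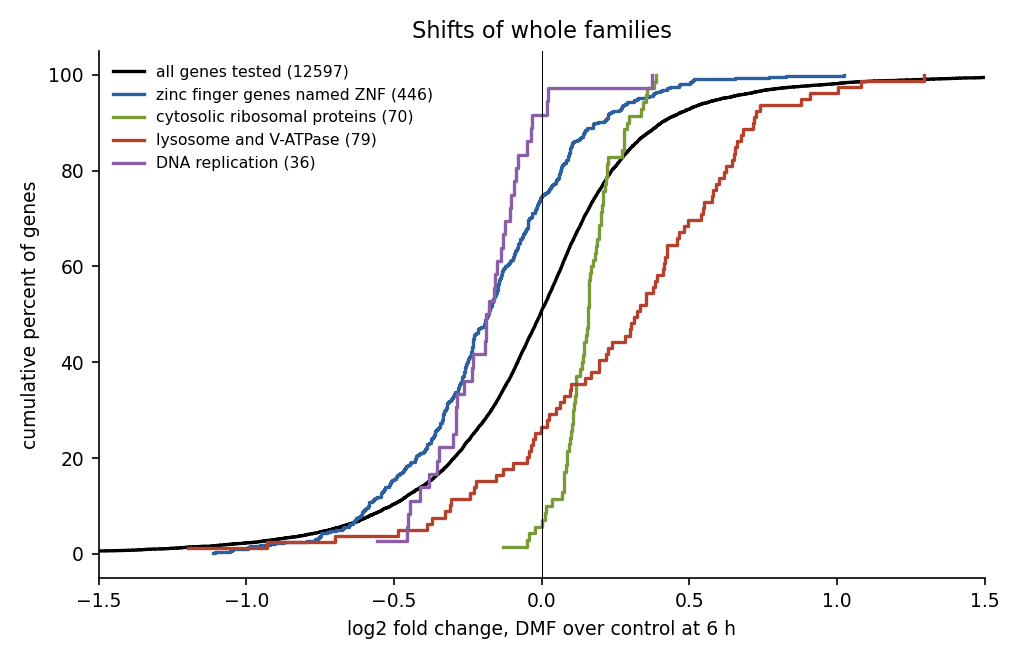
Cumulative percent of genes by log2 fold change of DMF over control at 6 h, for all 12597 genes tested and for 4 families, with the number of genes in parentheses. The ZNF and DNA replication curves cross 50% to the left of the curve of all genes (medians -0.18 and -0.18), and the ribosomal protein and lysosome curves cross 50% to its right (medians 0.16 and 0.32).

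Other motifs were searched in the same windows. The antioxidant response element, the NRF2 binding motif, searched as TGACNNNGC on both strands, occurred in the 250 bases before the start of 67 of 399 genes higher by 1.5-fold outside the 3 lists (16.8%), of 10.1% of genes lower by 1.5-fold and of 12.1% of all tested genes. It occurred in 15 of 57 lysosome genes (26.3%), among them LAMP1 and MFSD1. The same letters occurred in 5 of 25 NRF2 targets (20%), 7 of 41 ATF4 targets (17.1%) and 4 of 23 heat shock genes (17.4%). They also occurred in 6 of 37 interferon-stimulated genes (16.2%), a list that was mostly lower. Such a match therefore did not set NRF2 targets apart from other lists. The heat shock element GAANNTTC occurred in 3.76% of genes higher by 1.5-fold outside the 3 lists and in 4.11% of all tested genes. A match describes letters in a window, and the windows leave out sites elsewhere.

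The libraries of 24 h, with their own 3 controls, show which early changes were still there. Of the genes tested in 12 libraries, 4201 were higher and 3941 lower at 24 h (32.2% and 30.2%). Of the 599 genes higher by 1.5-fold at 6 h, 372 were called higher at 24 h, 73 were called lower and 154 were not called. Of the 878 lower ones, 437 were called lower, 120 higher and 321 not called. A test of the difference itself called the effect at 24 h above that at 6 h for 3374 of 13037 genes (25.9%) and below it for 3176 (24.4%). Of the 599 rises, the effect by this test was lower at 24 h for 279 and higher for 53. Of the 878 falls, it was higher at 24 h for 496 and lower for 41. Genes whose effect changed sign are counted here by direction, whatever its size at 24 h. These genes were picked as past 1.5-fold on 6 h values that also enter the difference, which favours smaller effects at 24 h.

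Single genes show how far the effects parted. GRB10, an adaptor that restrains insulin signalling, rose at 6 h (from between 0.979 and 1.19 to between 3.79 and 3.99 CPM, log2 fold change 1.85) and was lower at 24 h (log2 fold change -1.69), a difference of -3.54 ± 0.25 (adjusted p = 4.5e-10). OSBPL6, a lipid transfer gene, and SNTB1, a syntrophin, did likewise, with differences of -3.03 and -3.19. BAIAP3, which acts in vesicle release, and GRASP, a scaffold protein, were lower at 6 h and higher at 24 h, with differences of 2.70 (adjusted p = 9.9e-08) and 2.76 (adjusted p = 2.3e-05), from levels below 3 CPM at 6 h. SASH3 had a log2 fold change of -0.05 at 24 h (adjusted p = 0.13), so its fall at 6 h was not seen then (difference 1.0, adjusted p = 5.6e-14). The effect on PIK3CG was -0.35 at 24 h (difference 1.29), that on RAP1GAP 0.89 (difference -1.58) and that on PIM3 0.31 (difference -1.0). GABARAPL1 (1.92), ASAH1 (0.76), CD24 (-1.28) and KCNA3 (-2.62) had log2 fold changes at 24 h in the direction of 6 h, and the fall of KCNA3 was larger (difference -0.92, adjusted p = 1.4e-07).

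Among lists, ATF4 targets had a median of 0.64 at 6 h and -0.51 at 24 h, mitosis 0.09 and -0.36, and ribosome biogenesis 0.11 and -0.23. The lysosome list went from 0.32 to 0.53, with 72 of its 79 members tested called higher and 1 lower at 24 h. Interferon-stimulated genes had medians of -0.60 and -0.43, and B cell receptor genes -0.24 and -0.14. DNA replication stood at -0.18 and -0.20.

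**Figure D5:**
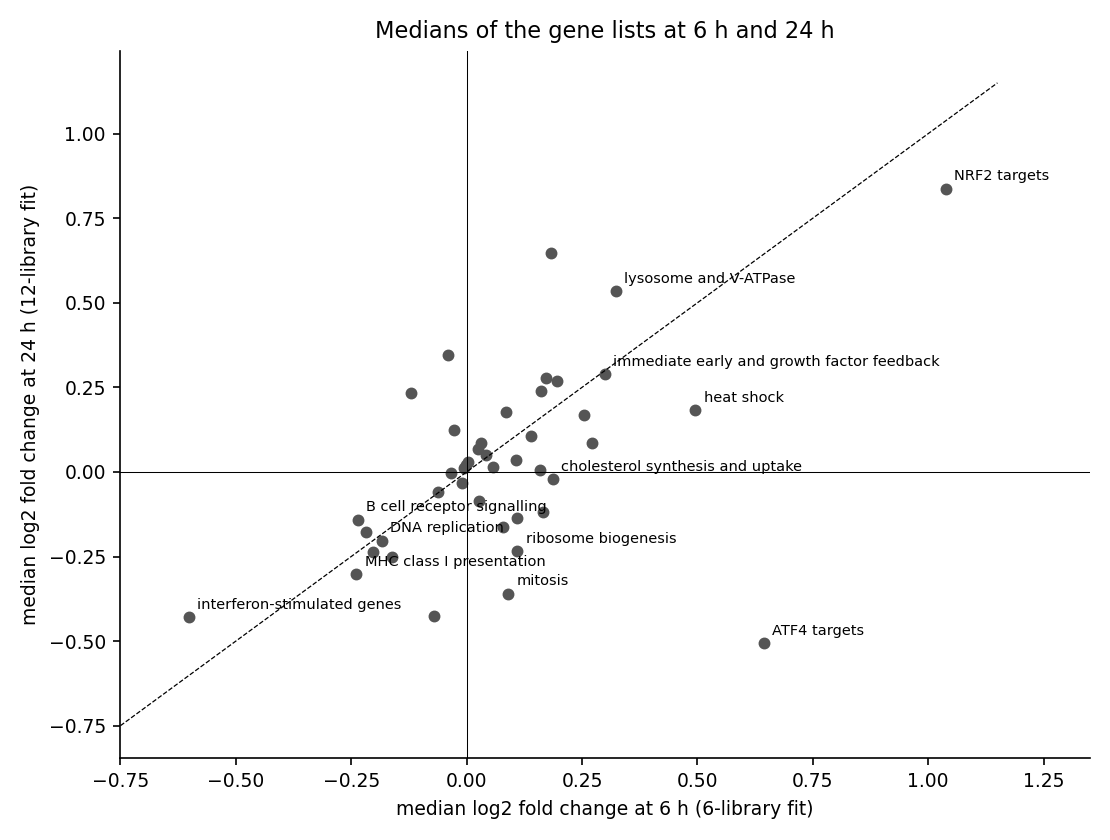
Median log2 fold change of DMF over control for each of the gene lists, at 6 h (6-library fit) on the horizontal axis and at 24 h (12-library fit) on the vertical axis; the dashed line marks equal values. ATF4 targets lie far below the line, at 0.64 and -0.51, and the lysosome list lies above it, at 0.32 and 0.53.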

How the data were processed

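RNA-seq values of 24 libraries were deposited as 1 gene table per library; the 6 libraries of 6 h were used here, and those of 24 h for the comparison of times. Per the submitters' processing notes, HISAT, HISAT2 and RSEM were used with the build GRCh38.p12; versions, read strand and ribosomal RNA removal are not given in the sources used here. The authors' expected counts are RSEM's estimates of reads per gene, deposited unnormalized and not whole, and were rounded here. The TPM values, deposited beside them, are RSEM's length-scaled levels as computed per library by the authors, and served as a check with a pseudocount of 1.

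The 6 libraries were fitted alone with edgeR 4.0.16 (R 4.3.3): filterByExpr, TMM scaling, quasi-likelihood F-test, Benjamini-Hochberg adjustment over all genes tested, calls at an adjusted p under 0.05. CPM values use TMM-scaled library sizes, and ± marks the SE of a log2 fold change. The difference between 24 h and 6 h was an interaction term in a fit of 12 libraries. Alternatives used DESeq2 1.42.0 and limma 3.58.1. In simulated counts for the 6 h comparison on 12434 genes, 56% of 50 genes changed by 1.2-fold, 85.7% of 49 changed by 1.5-fold and 94% of 50 changed by 2-fold were recovered, with 16 false calls. The simulation left nearly all genes unchanged, whereas 7256 of 12597 genes were called in the data. Its rates hold for that setting and are not the recovery or error rates of the reported calls.

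Genes were named by rule: the 20 highest and 20 lowest fold changes among called genes with 1 CPM or more and groups that did not overlap, the 10 largest gains and 10 largest losses in CPM (both outside the 3 stress lists), up to 6 members of each list by smallest p, and up to 6 in each direction by the 24 h difference. The members and lists were chosen with earlier results of these data known, and 2 lists (lysosome, lysosomal mTORC1 control) and the E-box were added after values were seen. Promoters came from the RefSeq table (10036 of 12597 tested genes matched), as 250 bases before each start, and gene positions from the GRCh38 annotation. Libraries of 1 group differed by more than sampling noise (chi-square per degree of freedom 2.19 to 5.56), so none was merged. Some genes that the rule names are not reported here.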

Additional observations from a re-analysis of the deposited data

Results flagged for a closer look

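For 10 of the genes named above, the effect of DMF at 24 h differed from that at 6 h by the interaction test of edgeR over 12 libraries, and these are given as differences in log2 fold change (24 h minus 6 h). The effect moved up for GRASP (2.76), BAIAP3 (2.70), PIK3CG (1.29) and SASH3 (1.001). It moved down for GRB10 (-3.54), SNTB1 (-3.19), OSBPL6 (-3.03), RAP1GAP (-1.58), PIM3 (-0.996) and KCNA3 (-0.92). The sign itself turned in GRASP, BAIAP3, GRB10, SNTB1 and OSBPL6. Of all genes tested, 25.9% had a difference upward and 24.4% one downward, so such a difference was common.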

How the results depend on the processing

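The 3614 higher and 3642 lower genes were 675 and 750 in a fit of all 24 libraries (365 and 463 by 1.5-fold or more), 1154 and 1358 in edgeR's test against 1.2-fold, and 1704 and 5613 in limma on log2(TPM + 1) (219 higher by 1.5-fold or more). With the library medians of the TPM set equal, an alternative chosen after seeing the data, 4097 were higher and 2843 lower, and 281 were lower by 1.5-fold or more. The cause was not tested, except that the fit of all 24 libraries tests against their larger spread. List medians that were above 0.1 and turned negative on the TPM scale were those of lysosomal mTORC1 control (-0.0162), metallothioneins and zinc (-0.0215), glycolysis (-0.0419), the clock (-0.0301) and ribosome biogenesis (-0.0392), and EEF1A1 turned too (-0.0414). Smaller medians that turned were those of mitosis, oxidative phosphorylation, dioxygenases, fatty acids, plasma cells, nuclear receptors, developmental signalling, iron and p53 targets. DESeq2 size factors, the DESeq2 test, no filter and removal of ribosomal RNA genes moved none of the counts over all genes by over 1.5 times, but the DESeq2 test took the higher members of the clock and of the TCA cycle from 8 to 5 each. Leaving out each library gave 3321 to 3473 higher and 3280 to 3410 lower genes, 587 to 607 and 826 to 882 by 1.5-fold or more, and for the 24 h difference 3096 to 3416 above and 2976 to 3333 below. On leaving out a library, list counts of 10 or fewer moved more. Without control replicate 3, for one, lower members went from 7 to 4 for iron and ribosome biogenesis and from 5 to 3 for nuclear receptors. Without control replicate 1 the clock's higher members went from 8 to 5. Without DMF replicate 2 oxidative phosphorylation had 3 lower members in place of 6. Against 1.2-fold, ACTB, ACTG1, CD79A, EEF1A1, EEF2, ERAP1, GAPDH, INSIG1, PARP9 and TUBB did not pass. Large list counts also fell in the fit of all 24 libraries and in the test against 1.2-fold, in that order. Higher ribosomal protein genes went from 59 to 0 and 6, oxidative phosphorylation from 26 to 0 and 2, and proteasome from 30 to 3 and 4. Higher lysosome genes went from 50 to 23 and 38. Lower DNA replication genes went from 30 to 5 and 8, and lower ZNF genes from 210 to 35 and 79.

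Same-numbered libraries of the groups did not deviate together (correlations 0.019, 0.065 and -0.20 over 8691 genes). As each group has only 3 libraries, this cannot exclude that equal numbers share an origin, which the labels do not give. With a replicate block 3512 were higher and 3512 lower, 579 and 866 of them by 1.5-fold or more, and no named gene changed its call; the 24 h difference was above for 3338 and below for 3197. With 3 libraries a group and 4 residual degrees of freedom, small changes of genes at low counts were not detectable at this depth. Each library is a sample of 1 line, and changes of cell number, RNA content and transcription cannot be told apart.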

Other observations

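Some further families, picked by symbol after their values were seen, had more genes called in one direction than in the other at 6 h (28.7% of all genes were higher and 28.9% lower), and their counts were not recomputed on the TPM scale. Among the E2 ubiquitin-conjugating enzymes, 21 of 34 tested were higher and 2 lower. Among DNAJ co-chaperones, which hand clients to HSP70, 21 of 39 were higher and 6 lower, and among translation factors named EEF or EIF 36 of 64 were higher and 12 lower. On the other side, 20 of 41 TRIM ubiquitin ligases, many of them antiviral, were lower and 5 higher. Of 13 PARP genes 8 were lower and 2 higher, of 12 non-receptor tyrosine phosphatases named PTPN 8 were lower and 2 higher, and of 11 semaphorins 7 were lower and 1 higher.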
